A study of Mus musculus with 8 samples.

Results

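The dystrophin glycoprotein complex was described through 8 of its genes, Dmd, Utrn, Dag1, Sgca, Sgcb, Sgcd, Sspn and Dtna, which were given by name, and through every probe set that the platform annotation assigns to them alone. All 8 were represented, out of 18193 genes with a probe set on the arrays, by 25 probe sets. The measurements are oligonucleotide array intensities of total RNA extracted from mouse myotubes, cultured cells with many nuclei that form by fusion of muscle precursors and are called primary in the series title. There were 4 RNAs, each hybridised to 1 array of type A and 1 of type B, which carry mostly different probe sets. The RNA labelled truncated Egr3 was compared with the RNA labelled wildtype, both from cultures under a growth treatment. RNA275, with an acclimatization treatment, and RNA276, with no treatment given, have no stated group, so their values are given singly and enter no comparison between groups. Egr3 is a zinc-finger transcription factor induced by activity and growth signals, and the series asks which genes it regulates in myotubes. How the truncated form was introduced, what wildtype describes (the protein or the cells) and how many animals or cultures went into an RNA are not given.

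The complex spans the muscle membrane and ties the actin cytoskeleton inside the fibre to the basal lamina outside it. Dystrophin, or utrophin in its place at the neuromuscular synapse and in immature fibres, binds the membrane protein dystroglycan, whose sugar chains hold laminin. Sarcoglycans and sarcospan form a subcomplex beside dystroglycan, and dystrobrevin and the syntrophins bind the cytoplasmic end and bring in signalling proteins. Loss of dystrophin or of a sarcoglycan causes muscular dystrophy in humans and mice.

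With 1 RNA per label there was no replicate check. No p-value is given, and every difference describes these RNAs only. Signals are the deposited intensities. For differences, signals under a floor (67.6 on type A, 112.6 on type B) were set to the floor and turned to log2, and a difference with 1 array at the floor is a bound on its size. Technical error could be measured, and no other. Across the 98 probe sets shared by types A and B and above the floor on all 8 arrays, a single log2 difference of truncated Egr3 minus wildtype had an SD of 0.167, and it read on average 0.15 lower on type A than on type B. The shared probe sets were bright (median signal at percentile 86.4 within type A), and noise is larger for dim ones. All 15 myotube markers examined, among them Myog, Ckm and Acta1, were above the floor in all 4 RNAs. Their summed type A signal was 31582 in the truncated-Egr3 RNA, 36401 in the wildtype RNA, 33126 in RNA275 and 35700 in RNA276. Egr3 itself read 830 in the truncated-Egr3 RNA and 769 in the wildtype RNA on type A, and 1039 against 1420 on type B. In RNA275 it read 1454 on type A and 1203 on type B. In RNA276 it read 2627 on type A, the highest of the 4, and 771 on type B, the lowest. Where these probe sets lie relative to the truncation was not analysed here, so they do not check the label.

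Because the study concerns a DNA-binding factor, the windows around the transcription starts of the complex genes were read for 3 motifs, in RefSeq sequence of the GRCm38.p6 build covering 250 bases before and 50 after each start. The table held 10 such windows for 7 of the 8 genes. The Egr motif was searched as GCGNGGGCG and the E-box, the site of myogenic regulators, as CANNTG, both on both strands. The CArG box, the site of serum response factor, was searched by its usual 10-letter form. The Egr motif was in 3 of the 10 windows, those of Dag1 (2 overlapping windows) and Sgcb, against 5.55% of all 32851 windows. A single Dag1 site is counted in both overlapping windows. The share of G and C was 75.3% and 69.7% in the Dag1 windows and 62.7% in the Sgcb window. The median over all windows was 52.7%. The part of base content in the Egr share was not tested. The E-box was in 7 of the 10, against 72.3% of all windows, and the CArG box in 1, that of Dmd, against 1.63%. Given here are the windows of Dag1 and Sgcb, which hold the Egr letters, and the Dmd window with the CArG box. Capitals mark matches to any of the 3 motifs, and no matches overlap in these windows.
Dag1, chr9:108263766-108264065, minus strand: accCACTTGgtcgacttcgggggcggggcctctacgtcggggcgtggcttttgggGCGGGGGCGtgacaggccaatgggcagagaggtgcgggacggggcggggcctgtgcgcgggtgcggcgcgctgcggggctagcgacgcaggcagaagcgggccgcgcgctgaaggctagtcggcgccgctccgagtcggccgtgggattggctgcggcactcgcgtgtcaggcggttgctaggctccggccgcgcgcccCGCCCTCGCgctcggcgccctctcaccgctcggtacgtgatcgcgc
Sgcb, chr5:73647688-73647987, minus strand: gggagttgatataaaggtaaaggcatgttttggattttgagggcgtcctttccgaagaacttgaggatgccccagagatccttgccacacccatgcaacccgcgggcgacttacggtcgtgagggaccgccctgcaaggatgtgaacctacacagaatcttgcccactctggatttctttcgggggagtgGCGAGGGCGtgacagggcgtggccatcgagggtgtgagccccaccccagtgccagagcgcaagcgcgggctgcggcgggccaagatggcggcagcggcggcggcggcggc
Dmd, chrX:82948620-82948919, plus strand: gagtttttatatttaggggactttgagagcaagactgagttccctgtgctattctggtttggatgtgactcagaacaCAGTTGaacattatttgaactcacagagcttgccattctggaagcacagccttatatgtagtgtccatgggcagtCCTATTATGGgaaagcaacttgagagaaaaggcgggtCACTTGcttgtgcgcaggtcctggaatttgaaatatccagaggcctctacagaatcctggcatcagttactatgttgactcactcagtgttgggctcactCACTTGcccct
The Egr matches in the Dag1 window began at positions 56 and 255 of the 300 printed, counted from the first base, where the start follows the first 250. The Sgcb match began at position 191. In the Dmd window the CArG box lay at positions 153 to 162, between E-boxes at 78 and 190, with a further E-box at 290. The other Dmd start, 2099425 bases further along the gene, had none of the 3 motifs in its window. A match is a description of letters and no evidence of binding.

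None of the complex genes was 2-fold apart between truncated Egr3 and wildtype. For all 8 the brightest probe set was taken from type A, here and below. Of the 8, 7 had a brightest probe set above the floor in at least 1 of these 2 RNAs, and 0 of the 7 were 2-fold higher or lower. Among all 10307 genes measured in the same way, 0.534% reached 2-fold higher in the truncated-Egr3 RNA and 1.13% reached 2-fold lower, so a count of 0 in 7 is near that background. Fewer cells of a type and less RNA per cell cannot be told apart in such extracts. In the deposited scale 32.2% of all genes 2-fold apart were higher in truncated Egr3, and with equal array medians 48.3%. Of the 7, 6 had a difference below 0 (5 with equal medians) and 1, Sspn, was above it (2 with equal medians). Over all measured genes 49.9% were below 0, and 38.9% with equal medians. But by the median over a gene's probe sets the balance turned, to 2 below and 4 above of 6 measured. For these genes that median takes type A only, with probe sets below the floor included. It leaves out type B, where probe sets of Dmd and Sgcb gave -0.56 and -0.54. By that median 49.8% of all measured genes were below 0. The median difference of the genes was -0.12 in log2 by the brightest probe sets and 0.07 by the median over probe sets, beside 0.00065 and 0.0020 over all measured genes. At the level of probe sets, 18 of the 25 were above the floor in at least 1 of the 2 RNAs. Of these, 12 had a difference below 0 and 6 above, 10 lay within 1 technical SD of 0, and 5 exceeded 2 technical SD, all 5 of them lower in the truncated-Egr3 RNA. Among all 21870 probe sets measured in the same way, 42.7% lay within 1 technical SD, 13.6% were lower by over 2 technical SD and 14.7% higher, so 5 of 18 past that distance is near the background of both directions together. Probe sets of 1 gene are not independent of each other.

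**Figure D1:**
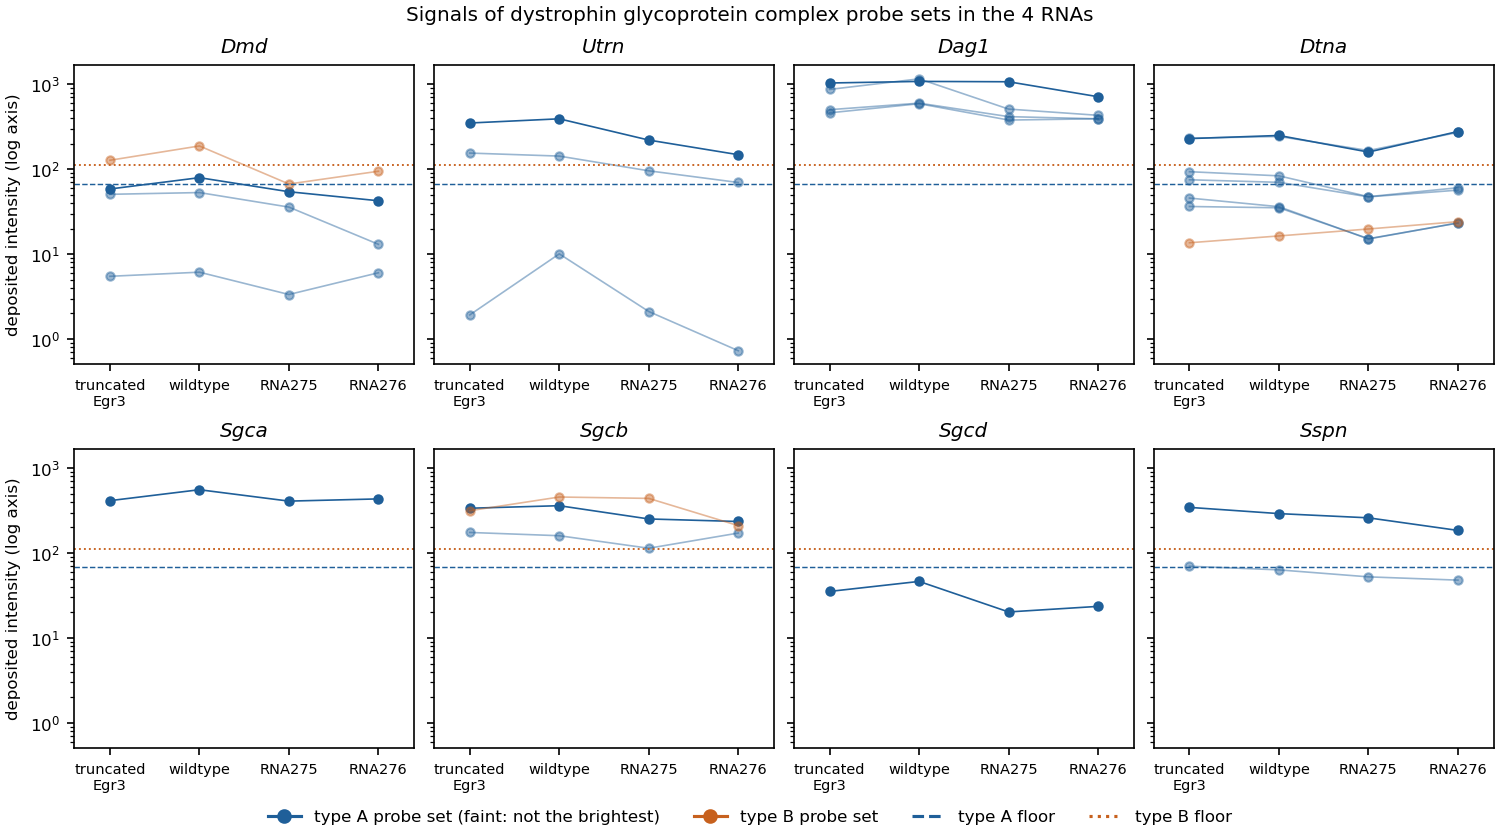
Deposited intensity (log axis) of the 25 probe sets of the 8 genes in the truncated-Egr3, wildtype, RNA275 and RNA276 RNAs, 1 array per point; lines join the values of a probe set and give no order in time. Dark lines are the brightest type A probe set of each gene. Blue is array type A and orange type B, and the dashed and dotted lines are the floors of 67.6 and 112.6. Utrn and Sspn are lowest in RNA276, Dtna is lowest in RNA275, and Sgcd is below the floor throughout.

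Dmd encodes dystrophin, the rod-shaped protein that links actin to dystroglycan. Its signals were low. The brightest type A probe set read 58.5 in the truncated-Egr3 RNA, 79.5 in the wildtype RNA, 54.3 in RNA275 and 42.5 in RNA276. The wildtype array was thus the only one of the 4 above the floor, and the log2 difference of -0.23 is a bound. The type B probe set read 127 in the truncated-Egr3 RNA, 188 in the wildtype RNA, 66.9 in RNA275 and 94.6 in RNA276. Here truncated Egr3 and wildtype were above the floor and the other RNAs below it. The difference of -0.56 was the most negative of the 18 and 3.35 times the technical SD, under 2-fold. The 2 remaining type A probe sets were below the floor everywhere, between 13.0 and 53.1 by one and between 3.34 and 6.13 by the other. On every probe set the wildtype RNA had the highest Dmd signal of the 4, but by these last 2 all signals were under the floor, where an order means little. The probe sets may read different dystrophin isoforms, since the gene has several promoters and 3' ends, and their positions were not analysed here.

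Utrn encodes utrophin, the autosomal relative of dystrophin. Its brightest probe set read 350.0 in the truncated-Egr3 RNA, 392 in the wildtype RNA, 220.3 in RNA275 and 148 in RNA276. The log2 difference between truncated Egr3 and wildtype was -0.16, within 1 technical SD. A second probe set had the opposite sign at 0.12, with 155 in the truncated-Egr3 RNA, 143 in the wildtype RNA, 95.7 in RNA275 and 69.7 in RNA276. Both probe sets placed truncated Egr3 and wildtype close together and above RNA275, and RNA275 above RNA276. The highest RNA exceeded the lowest 2.65-fold by the brightest probe set and 2.22-fold by the second. By the brightest probe sets, Utrn was the only 1 of the 7 measured complex genes with a 2-fold range over the 4 RNAs. Over all genes above the floor in any RNA, 14.8% of 11154 had such a range. Of the 13 complex probe sets above the floor in all 4 RNAs, 4 had such a range. Those not of Utrn were of Dag1 (2.69-fold) and Sgcb (2.17-fold). The third probe set was below the floor in all 4, at 10.1 or less.

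Dag1 encodes dystroglycan, which is cleaved into the laminin-binding alpha subunit and the membrane-spanning beta subunit. All 4 of its probe sets were well above the floor, and by each the truncated-Egr3 RNA was below the wildtype RNA, by 0.06, 0.26, 0.36 and 0.41 in log2. The smallest of these came from the brightest probe set, which read 1036 in the truncated-Egr3 RNA, 1081 in the wildtype RNA, 1071 in RNA275 and 714 in RNA276. By that probe set only RNA276 stood lower. The largest came from a probe set that read 870 in the truncated-Egr3 RNA, 1159 in the wildtype RNA, 510 in RNA275 and 431 in RNA276. Its range over the 4 RNAs was 2.69-fold, and those of the other 3 were 1.51, 1.53 and 1.56-fold. Both Dag1 probe sets more than 2 technical SD from 0, at -0.41 and -0.36, carry the maker's suffix for possible cross-hybridisation. By 3 of the 4 probe sets RNA275 was below both labelled RNAs, and RNA276 was below them by all 4.

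Among the sarcoglycans, Sgca encodes the alpha subunit, found in striated muscle. Its single probe set read 414 in the truncated-Egr3 RNA, 557 in the wildtype RNA, 409 in RNA275 and 434 in RNA276. The wildtype RNA stood alone above the other 3, which were close together. The log2 difference of -0.43 between truncated Egr3 and wildtype was the most negative among the brightest type A probe sets of the complex genes. It was 2.56 times the technical SD and under 2-fold. The type B probe set of Dmd was further below 0, at -0.56. Sgcb encodes the beta subunit, which is made in many tissues. Its brightest type A probe set read 337 in the truncated-Egr3 RNA, 361 in the wildtype RNA, 252 in RNA275 and 235 in RNA276. The difference of -0.10 was within 1 technical SD. The other type A probe set had the opposite sign, 0.13, with 175 in the truncated-Egr3 RNA and 160 in the wildtype RNA. It read 114 in RNA275 and 172 in RNA276, so RNA276 was not lowest by this probe set. The type B probe set read 315 in the truncated-Egr3 RNA, 457 in the wildtype RNA, 440.0 in RNA275 and 210.2 in RNA276. Its difference of -0.54 was 3.20 times the technical SD, and it alone placed RNA275 beside wildtype. The 3 Sgcb probe sets therefore disagreed on the size of the difference, on its sign and on the places of RNA275 and RNA276. Sgcd, the delta subunit, was below the floor in all 4 RNAs, at 35.3 in truncated Egr3, 46.3 in wildtype, 20.2 in RNA275 and 23.5 in RNA276.

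Sspn encodes sarcospan, the protein with 4 membrane passes that binds the sarcoglycans. It was the 1 measured complex gene with higher signal in the truncated-Egr3 RNA by its brightest probe set. That probe set read 345 in the truncated-Egr3 RNA, 291 in the wildtype RNA, 260 in RNA275 and 185 in RNA276. The difference of 0.24 was 1.46 times the technical SD. The highest RNA exceeded the lowest 1.87-fold, and truncated Egr3 was highest and RNA276 lowest. The second, dimmer probe set had the same order, with 69.9 in the truncated-Egr3 RNA, 63.3 in the wildtype RNA, 52.4 in RNA275 and 48.0 in RNA276, of which the first alone was above the floor.

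Dtna encodes alpha-dystrobrevin, the cytoplasmic partner of dystrophin and the syntrophins. The 2 bright probe sets followed each other closely. The brightest read 229 in the truncated-Egr3 RNA, 250 in the wildtype RNA, 159 in RNA275 and 278 in RNA276. The other read 232 in the truncated-Egr3 RNA, 243 in the wildtype RNA, 166 in RNA275 and 271 in RNA276. Their differences between truncated Egr3 and wildtype, -0.12 and -0.07, were within 1 technical SD, and both had RNA276 highest and RNA275 lowest. A pair of dimmer probe sets ordered the RNAs otherwise. They read 93.5 and 75.1 in the truncated-Egr3 RNA and 83.5 and 70.1 in the wildtype RNA, and were below the floor in RNA275 (47.5 and 47.2) and in RNA276 (60.5 and 56.7). The RNA with the highest Dtna signal by the bright pair was thus below the floor by the dimmer pair. The other 3 Dtna probe sets were below the floor in all RNAs. The gene makes several splice forms, and which form each probe set reads was not analysed here.

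**Figure D2:**
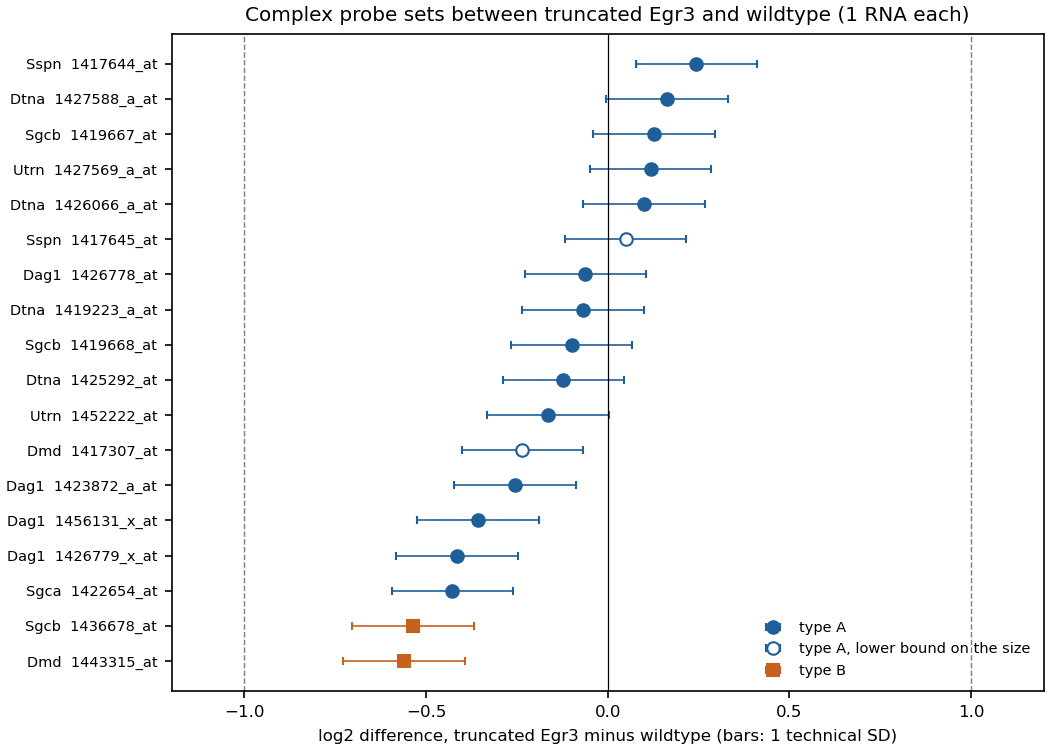
Log2 difference of truncated Egr3 minus wildtype for the 18 complex probe sets above the floor in at least 1 of these RNAs, sorted by size, with bars of 1 technical SD (0.167); open circles are lower bounds on the size and dashed lines mark 2-fold. The 5 probe sets more than 2 technical SD from 0, of Dmd, Sgcb, Sgca and Dag1 (2), are all below 0, and none reaches 2-fold.

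Over the 4 RNAs, 6 of the 8 genes were above the floor on every array by their brightest probe set. Of the 6, 4 (Utrn, Dag1, Sgcb and Sspn) were lowest in RNA276, beside 26.9% of the 8414 genes above the floor on all 4 arrays; with equal array medians Sgcb was no longer among them, and with the median over probe sets 3 of 5 were lowest there. Also 4 of the 6 (Utrn, Dag1, Sgca and Sgcb) were highest in the wildtype RNA, beside 17.1% of those genes, but 3 of 6 with equal medians and 2 of 5 with the median over probe sets. In 3 of the 6, both labelled RNAs were above RNA275 and RNA276, beside 20.8%. These orders were noticed in the values and are descriptions of 4 arrays. Levels of other transcripts moved over the RNAs too. The myotube marker Ttn, which encodes titin and was looked up after its values were seen, read 1627 in the truncated-Egr3 RNA, 1850 in the wildtype RNA, 704 in RNA275 and 354 in RNA276, the same order as Utrn. The other 14 myotube markers had ranges of at most 0.87 in log2. For beta-actin, the type A control signal at the 3' end over that at the 5' end was 1.10 in truncated Egr3, 1.05 in wildtype, 1.14 in RNA275 and 1.13 in RNA276. The part of RNA quality in these orders was not tested.

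The 5 genes whose pattern over the 4 RNAs was most like that of Utrn, by Euclidean distance of centred log2 signals among 5947 type A genes above the floor on all 4 arrays, were Msi2, Tcf4, Bicc1, Ankrd44 and Ryr1. Their distances were between 0.16 and 0.22. Msi2, an RNA-binding protein, read 230.5 in the truncated-Egr3 RNA, 263 in the wildtype RNA, 128 in RNA275 and 95.9 in RNA276. Ryr1, the calcium release channel of the triad, read 616 in the truncated-Egr3 RNA, 594 in the wildtype RNA, 409 in RNA275 and 260.2 in RNA276. With 4 values per gene and 5947 genes, near patterns say nothing of shared control.

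**Figure D3:**
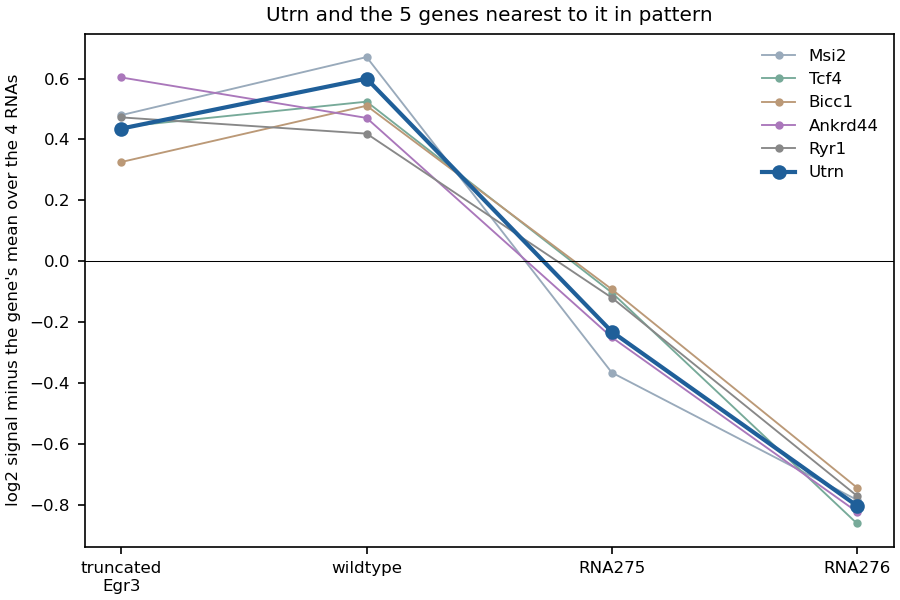
Log2 signal of Utrn (thick line) and the 5 nearest genes in the 4 RNAs, each centred on its own mean over the 4 (1 array per point, type A; lines give no order in time). All 6 genes are above their mean in truncated Egr3 and wildtype, below it in RNA275 and lowest in RNA276.

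The partners of the complex were read from 4 lists. Of 50 listed genes, 43 had a probe set here. By the probe set that stood for each gene, from type A where it had one, 32 of these were above the floor in truncated Egr3 or wildtype. Nos1, Dtnb and B4galnt2 passed the floor in these RNAs on type B only and are not among the 32. Of the 32, 20 were higher and 12 lower in the truncated-Egr3 RNA, and 1 was 2-fold apart. Over all measured genes 49.9% were lower, and 0.534% were 2-fold higher and 1.13% 2-fold lower. The other sarcoglycan and syntrophin genes on the list were mostly dim. Sgce, the epsilon subunit, read 181 in the truncated-Egr3 RNA and 110 in the wildtype RNA, with 132 in RNA275 and 164 in RNA276. Its difference of 0.72 had the opposite sign to those of Sgca and of the brightest Sgcb probe set; its type B probe set gave 0.11. Sntb1, a syntrophin that binds dystrophin and utrophin, had no single direction. Its 2 type A probe sets gave 0.06 and -0.15. The 4 type B ones, all brighter, gave 0.51, 0.33, -0.10 and -0.33, with 2803, 1564, 862 and 446 in the truncated-Egr3 RNA against 1972, 1242, 922 and 561 in the wildtype RNA.

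Of 9 measured genes for extracellular ligands, 7 were higher in the truncated-Egr3 RNA, 1 by 2-fold, and the median difference was 0.18. Over all measured genes 49.9% were lower and the median difference was 0.00065. The gene at 2-fold was Hspg2, which encodes perlecan, a heparan sulfate proteoglycan that dystroglycan binds. It read 827 in the truncated-Egr3 RNA and 392 in the wildtype RNA, 2.11-fold higher, with 485 in RNA275 and 756 in RNA276. Its second probe set gave 0.69 in log2, with 332 in the truncated-Egr3 RNA and 206 in the wildtype RNA. Agrn, also a dystroglycan ligand and the organiser of acetylcholine receptor clusters, went the other way at -0.98, with 94.7 in the truncated-Egr3 RNA, 187 in the wildtype RNA, 201 in RNA275 and 137 in RNA276. Lama4, a laminin alpha chain of synaptic and vessel basal lamina, had a difference of 0.52 (0.16 by a dimmer probe set), and Lama2, the main laminin alpha chain of muscle fibres and named after its values were seen, of 0.18.

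Among 12 measured membrane and cytoskeletal partners, 8 were higher and 4 lower in the truncated-Egr3 RNA, none by 2-fold, with a median of 0.10. Nos1 is not among the 12, since its type A probe sets were below the floor. A type B probe set of Nos1, named after its values were seen, read 455 in the truncated-Egr3 RNA and 431 in the wildtype RNA. In RNA275 it read 497 and in RNA276 604. Ank2, an ankyrin that helps place dystrophin at the membrane, had the largest difference at 0.57, with 329 in the truncated-Egr3 RNA against 222 in the wildtype RNA, and its other probe sets above the floor gave 0.81 and 0.28. Cav3, the muscle caveolin, which binds the tail of dystroglycan, had -0.49, with 535 in the truncated-Egr3 RNA, 753 in the wildtype RNA, 525 in RNA275 and 561 in RNA276. As with Sgca, the wildtype RNA stood above the other 3. Dysf, the membrane repair protein dysferlin, had 0.27. Of 9 measured genes that build the sugar chains of dystroglycan, 3 were higher and 6 lower, none by 2-fold, with a median of -0.06. The transferase gene Pomgnt2 had 0.38, and Dpm3 and Dpm1, subunits of the enzyme that makes the mannose donor, had -0.32 and -0.27. Dpm2, on the same list and named after its values were seen, had no single direction. Its probe set gave -0.25 on type A and 0.42 on type B.

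**Figure D4:**
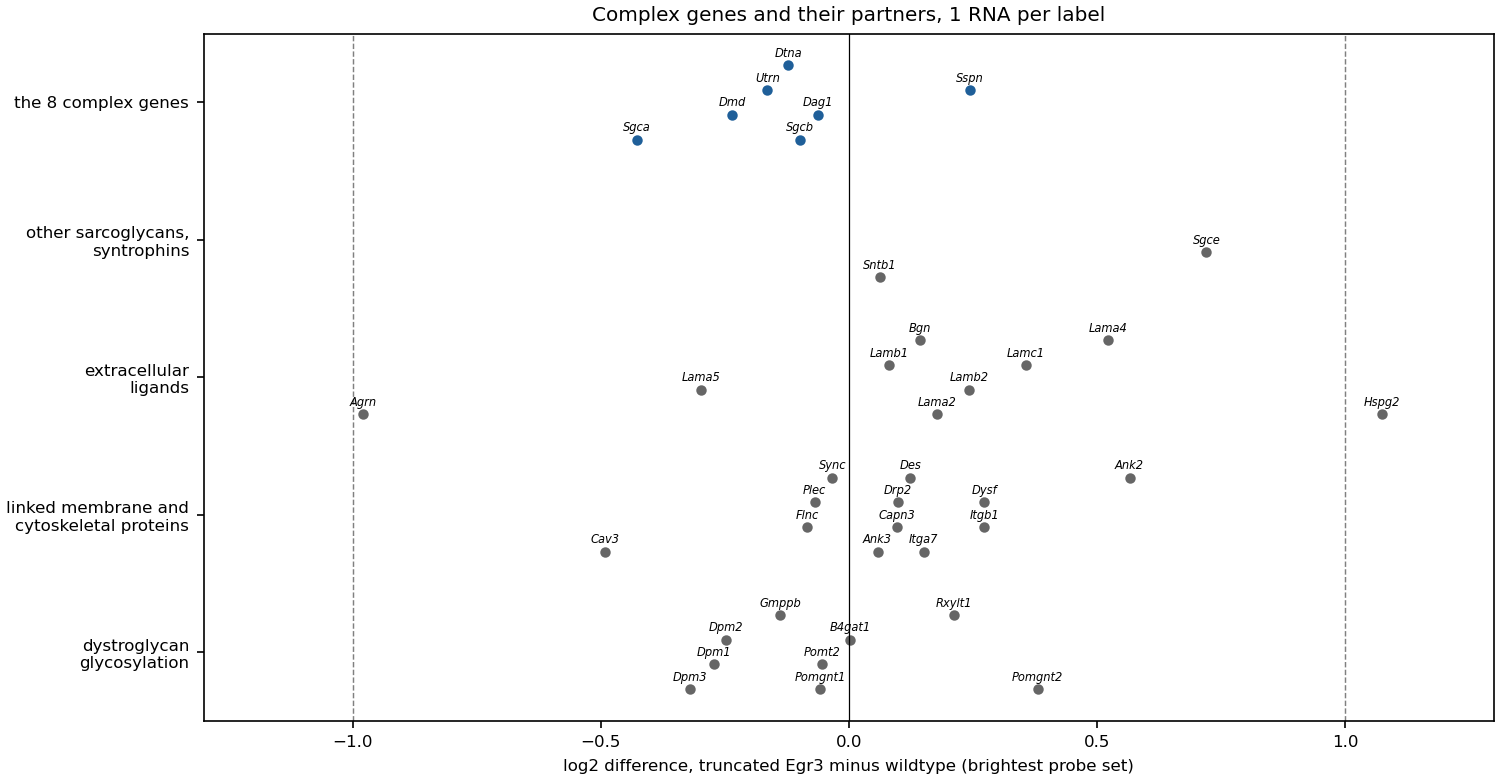
Log2 difference of truncated Egr3 minus wildtype for the complex genes (7 measured of 8, blue) and the 4 lists of partners (grey), 1 RNA per label. Each measured gene is shown by its brightest probe set, from type A where it had one. Dashed lines mark 2-fold and the vertical offset of points has no meaning. Hspg2 lies past 2-fold at 1.07, Agrn just short of it at -0.98, and the complex genes lie between -0.43 and 0.24.

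Markers of other cells were read in the same RNAs. Each summed signal takes all listed markers on the arrays, those below the floor included. Of the fibroblast markers, 5 of 8 were above the floor in truncated Egr3 or wildtype, with a summed signal of 10365 in the truncated-Egr3 RNA and 10484 in the wildtype RNA. Dcn, a matrix proteoglycan, was higher in truncated Egr3 (2.02-fold). Fn1 and Col3a1 had log2 differences of 0.24 and 0.08, and Col1a1 and Col1a2 were lower, at -0.33 and -0.19. Pdgfra and Thy1 were below the floor in all 4 RNAs. Of the smooth muscle and pericyte markers, 3 of 7 were above the floor, with sums of 4505 in the truncated-Egr3 RNA and 6202 in the wildtype RNA, and the defining Myh11 and Cnn1 were below it. Of the Schwann cell and glial markers on the arrays, 2 of 5 were above the floor, with sums of 487 in the truncated-Egr3 RNA and 609 in the wildtype RNA. The macrophage markers had 2 of 8 above the floor and sums of 357 in the truncated-Egr3 RNA and 353 in the wildtype RNA, and the endothelial markers 1 of 5, with sums of 124 in the truncated-Egr3 RNA and 141 in the wildtype RNA. Myotube markers were lower in the truncated-Egr3 RNA in 13 of 15 cases, beside 49.9% of all measured genes, with a median of -0.20 and none at 2-fold. The complex genes had -0.12 by the brightest probe sets, and by the median over probe sets they had 0.07 where the myotube markers had -0.23. The order of the 2 medians depended on the scaling. With quantile normalization the complex genes had -0.14 and the myotube markers -0.09, and with loess -0.14 and -0.12. With equal medians they had -0.06 and -0.14. The part of myotube content in the differences of the complex genes was not tested.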

How the data were processed

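Groups came from the labels, and the type A and type B arrays of an RNA were not counted as replicates. The authors deposited a linear intensity for each probe set. The software and scaling behind it are not given in the sources used. The deposited intensity values had means of 150.0 on all 8 arrays after trimming 2% from each end, so the deposited scale was kept, which assumes like total signal in the RNAs. Gene names came from the platform annotation, updated by gene number through RefSeq (GRCm38.p6), for 20351 of 20380 type A and 14486 of 14661 type B probe sets with 1 symbol. The brightest probe set stood for each gene, from type A where it had one. The alternative, the median over probe sets, used the same array type and included probe sets below the floor. Floors were the 50th (type A) and 60th (type B) percentiles of the truncated-Egr3 and wildtype arrays pooled. A gene counted as measured with at least 1 array above the floor. The threshold was 2-fold. The number of arrays limits the precision.

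Named genes were all 8 complex genes with all their probe sets, up to 3 genes per partner list by size of difference, and the 5 genes nearest in pattern to a complex gene with a 2-fold range. The genes and lists were chosen with earlier results of these data known. Counting was tested on simulated data. Alternatives were 3 other scalings (quantile, equal medians, loess of span 0.3), lower (40th and 50th percentile), higher (60th and 70th) and no floor (minimum 1), thresholds of 1.5 and 3-fold, the median over probe sets, and leaving out probe sets with cross-hybridisation suffixes. Python 3.11.15, numpy 2.4.6, pandas 2.3.3, statsmodels 0.14.6 and matplotlib 3.10.9 were used.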

Additional observations from a re-analysis of the deposited data

How the results depend on the processing

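The count of complex genes 2-fold apart between truncated Egr3 and wildtype was 0 under every alternative run. The count with a 2-fold range over the 4 RNAs, taken by gene and not by probe set, was 1 (Utrn) under the scalings and the other floors. It was 2 with no floor, where Sgcd joined from signals under 50. A threshold of 1.5-fold gave 5 and one of 3-fold gave 0. Over all genes, 55 were 2-fold higher in truncated Egr3, and 87 with equal medians, 84 with the lower floor, 603 with no floor, 484 at 1.5-fold and 8 at 3-fold. Those 2-fold lower numbered 116, and 185 with the lower floor, 76 with the higher floor, 1206 with no floor, 473 at 1.5-fold and 38 at 3-fold. With equal medians the type B genes had a median difference of 0.17 in log2, against 0.03 in the deposited scale, and 48.3% of genes 2-fold apart were higher in truncated Egr3, against 32.2%. Sgca stayed between -0.47 and -0.36 and Sspn between 0.19 and 0.31 under all alternatives. The median over probe sets was taken on type A for these genes, with those below the floor included. It turned the sign of Utrn to 0.12, Dtna to 0.13 and Sgcb to 0.01, and left Dmd unmeasured. So 2 of 6 genes were below 0 in place of 6 of 7. The type B probe sets of Dmd and Sgcb, at -0.56 and -0.54, were not in that median. Signals near the floor limit Dmd and Sgcd most: Dmd was -0.44 with the lower floor, and unmeasured with the higher one. No paired analysis was possible because each label has 1 RNA.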

Other observations

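Of the 32 measured partner genes, 4 had a 2-fold range over the 4 RNAs (Lama2, Lama4, Agrn and Hspg2), which is near the 14.8% of all measured genes with such a range. All 4 are on the list of extracellular ligands, but the count takes 1 probe set per gene. Other probe sets above the floor in all 4 RNAs passed 2-fold for partners on other lists. They were of Sntb1 (2.62 and 2.23-fold), Ank2 (2.55-fold) and Plec (2.12-fold). Lama2 read 197 in the truncated-Egr3 RNA, 175 in the wildtype RNA, 102 in RNA275 and 81.0 in RNA276. Lama4 read 342 in the truncated-Egr3 RNA, 238 in the wildtype RNA, 111 in RNA275 and 138 in RNA276. A type B probe set of Dtnb, the beta-dystrobrevin gene, read 176 in the truncated-Egr3 RNA, 73.8 in the wildtype RNA, 107 in RNA275 and 127 in RNA276, while its type A probe set was below the floor in all 4. These genes and the Dtnb probe set were named after their values were seen.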
